A study of Mus musculus with 14 samples.

Results

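The mitochondrial ribosomal protein genes were taken as all rows of the count table whose symbol begins with Mrpl or Mrps followed by a digit. This gave 82 of 46095 gene symbols, 50 named for the large subunit (Mrpl) and 32 named for the small subunit (Mrps), of which 5 carry the -ps ending of a pseudogene. After the filter on low counts, 81 of the 82 remained among the 17693 genes tested, with 50 Mrpl and 31 Mrps symbols. RNA came from the superior mesenteric artery of 14 C57BL/6 mice aged 8 weeks. The normal groups held 3 Drp1 +/+ mice (WT) and 4 Drp1 flox/+ mice (KO), and the ischemic groups held 3 WT and 4 KO mice. The sample labels call the second genotype flox/+ and a knockdown, and the methods of the study describe a heterozygous Drp1 loss made by CRISPR/Cas9 at exon 2, so KO is used here only as the name of the group. Ischemia was produced by bleeding from the femoral artery. The sample codes of the ischemic mice begin with 2h, whereas the study names a longer period. Each library is 1 mouse.

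Mitochondria carry their own ribosome, built mainly from rRNAs of the mitochondrial genome and from proteins that are all encoded in the nucleus and imported. It translates the few mRNAs of the mitochondrial genome, each for a subunit of the respiratory chain or of ATP synthase. Some of its proteins descend from bacterial ribosomal proteins, and others have no bacterial counterpart. In adult tissues these genes are transcribed nearly everywhere, and cells rich in mitochondria, such as brown adipocytes, cardiomyocytes and oxidative muscle fibres, carry more of the transcripts. By their modern names, 46 members have a bacterial homolog and 31 are specific to mitochondria, the pseudogene symbols apart.

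Total counts ran from 25612646 to 40255851 per mouse. Counts were scaled to CPM, each count set against all counts of its mouse, adjusted by TMM factors, and 3 counts in a mouse corresponded to 0.0745 to 0.117 CPM before that scaling. WT normal mouse 3 was sequenced in lane 1 and the other 13 libraries in lane 8. Dnm1l, the symbol of Drp1, was at 73.5 ± 15.1 CPM in WT normal mice (SD, n = 3) and 58.9 ± 3.3 CPM in KO normal mice (SD, n = 4), with an FDR of 0.974 in edgeR's quasi-likelihood test, and this count over whole transcripts does not separate exon 2. The smooth muscle markers Acta2, Myh11, Tagln, Cnn1 and Smtn summed to 6971 to 35650.2 CPM per mouse. All 6 brown adipocyte markers (Ucp1, Cidea, Elovl3, Cox8b, Otop1 and Dio2) were also detected, and Elovl3 was at 0 in WT normal mouse 1. Their sum ran from 182 to 7005 CPM in WT normal mice, 1194 to 6459 in KO normal mice, 288 to 1528 in WT ischemic mice and 1028 to 5035 in KO ischemic mice. The libraries therefore differed in brown adipocyte markers within each group, and these values stand beside the results below.

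The mitochondrial ribosomal protein genes lie on 17 chromosomes, with 10 on chromosome 11. Many sit close to another gene that is read in the opposite direction. In the GENCODE M21 annotation of GRCm38, a protein-coding gene on the other strand starts within 1000 bases of the start of 33 of the 77 tested protein-coding members (42.9%), against 14.5% of all tested protein-coding genes. Mrps12 shares such a region with Sars2, the mitochondrial seryl-tRNA synthetase, at 172 bases. Mrpl43 shares one with Twnk, the mitochondrial DNA helicase, at 779 bases, and Mrpl36 shares one with Ndufs6, a complex I subunit, at 29 bases. Mrpl46 and Mrps11, a large and a small subunit gene, start 412 bases apart.

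The bases before the start were searched on both strands for 3 short motifs of factors known to act on nuclear genes of mitochondria. These were GCGCANGCG for NRF1, CCGGAAG for ETS factors such as GABP, and AAGATGGCG for YY1. RefSeq promoters (GRCm38.p6, 250 bases before each start) were matched for 68 of the 82 members by symbol, with 74 promoters. The ETS letters were found in 17 of them (23%), against 11.4% of the promoters of all tested genes and 6.91% of all 32851 promoters. The NRF1 letters were found in 17.6%, against 9.24% and 5.16%. The YY1 letters were in 2 of the 74. NRF1 letters stood in 11 of 47 large subunit and 2 of 27 small subunit promoters. For the cytosolic ribosomal protein genes, whose products form the ribosome outside mitochondria, the shares were 27.4% for ETS and 4.11% for NRF1. A match is a description of the letters and not a binding site. Of the members with the smallest p-values below, 4 with a match are printed 5′ to 3′ up to the base before the start, with the matched letters in capitals. They are the first 4 such members in the order of the comparisons, shown as examples of where the letters lie, and Mrpl57 and Mrpl22 also held a match. The Mrpl44 promoter is at chr1:79775768-79776017 (plus strand), the Mrps27 promoter at chr13:99344536-99344785 (plus), the Mrpl52 promoter at chr14:54426659-54426908 (plus) and the Mrpl43 promoter at chr19:45006443-45006692 (minus).
Mrpl44: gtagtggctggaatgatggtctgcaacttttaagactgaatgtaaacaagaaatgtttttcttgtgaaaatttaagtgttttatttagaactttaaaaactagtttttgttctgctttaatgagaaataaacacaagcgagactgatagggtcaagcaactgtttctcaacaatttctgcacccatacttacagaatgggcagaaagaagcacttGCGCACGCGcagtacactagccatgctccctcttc
Mrps27: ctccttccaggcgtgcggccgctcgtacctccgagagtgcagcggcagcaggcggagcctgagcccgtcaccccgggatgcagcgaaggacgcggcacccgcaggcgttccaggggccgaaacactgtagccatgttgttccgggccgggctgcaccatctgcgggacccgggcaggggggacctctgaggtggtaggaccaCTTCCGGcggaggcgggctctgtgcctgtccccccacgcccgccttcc
Mrpl52: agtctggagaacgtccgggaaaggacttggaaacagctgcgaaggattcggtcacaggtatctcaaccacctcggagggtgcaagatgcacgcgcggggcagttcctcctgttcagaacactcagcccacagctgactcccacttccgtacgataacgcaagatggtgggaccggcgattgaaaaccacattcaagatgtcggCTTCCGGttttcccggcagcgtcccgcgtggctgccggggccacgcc
Mrpl43: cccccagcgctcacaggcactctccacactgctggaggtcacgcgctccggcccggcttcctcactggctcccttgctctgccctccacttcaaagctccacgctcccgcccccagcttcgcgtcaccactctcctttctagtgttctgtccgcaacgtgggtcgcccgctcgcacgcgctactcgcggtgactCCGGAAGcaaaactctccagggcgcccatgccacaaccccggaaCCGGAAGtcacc
The Mrpl44 capitals are the NRF1 letters, 35 to 27 bases before the start. In Mrps27 and Mrpl52 the capitals are the ETS letters on the opposite strand, 48 to 42 and 47 to 41 bases before the start. Mrpl43 holds the ETS letters at 56 to 50 and again at 12 to 6 bases before the start.

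The members' levels were compared per kilobase of exons, since CPM alone favours long transcripts. The length joined every annotated exon of a gene, so genes with many or long annotated transcripts can come out lower. Over all mice the median member was at 9.75 CPM per kb, with 13.1 for the 50 large subunit symbols and 7.94 for the 31 small subunit symbols. The highest large subunit gene was Mrpl34, a homolog of bacterial L34, at 78.2 ± 47 CPM per kb (SD, n = 14 mice). Mrpl12, part of the flexible stalk that recruits translation factors, followed at 55.4 ± 31.9 and Mrpl54, a protein specific to mitochondria, at 39.5 ± 12 (both SD, n = 14). The spreads of neighbours in this order overlapped. Mrpl34 was the highest large subunit gene in 12 of the 14 mice, and in WT normal mouse 1, which had the lowest brown adipocyte markers, it was at 17.4 CPM per kb and ranked 8 of 50. Among small subunit symbols, Mrps21 stood first at 64.5 ± 23.7 CPM per kb, then Mrps15 at 32.2 ± 9.27 and Mrps12, a protein of the decoding centre, at 25.9 ± 9.13 (each SD, n = 14). Mrps15 and Mrps12 also overlapped in their spread. The stalk partner Mrpl10 was at 32, and Mrpl11 at the base of the stalk at 7.69 CPM per kb. The lowest large subunit genes were Mrpl23-ps1, Mrpl40 and Mrpl23, at 1.63, 0.612 and 0.455 CPM per kb. The lowest small subunit genes were Mrps36-ps2, Mrps23 and Mrps18b, at 1.51, 1.03 and 0.633. Mrps36-ps3 had 0 counts in all 14 mice, which allows up to 3 counts per mouse, and it was not tested.

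**Figure D1:**
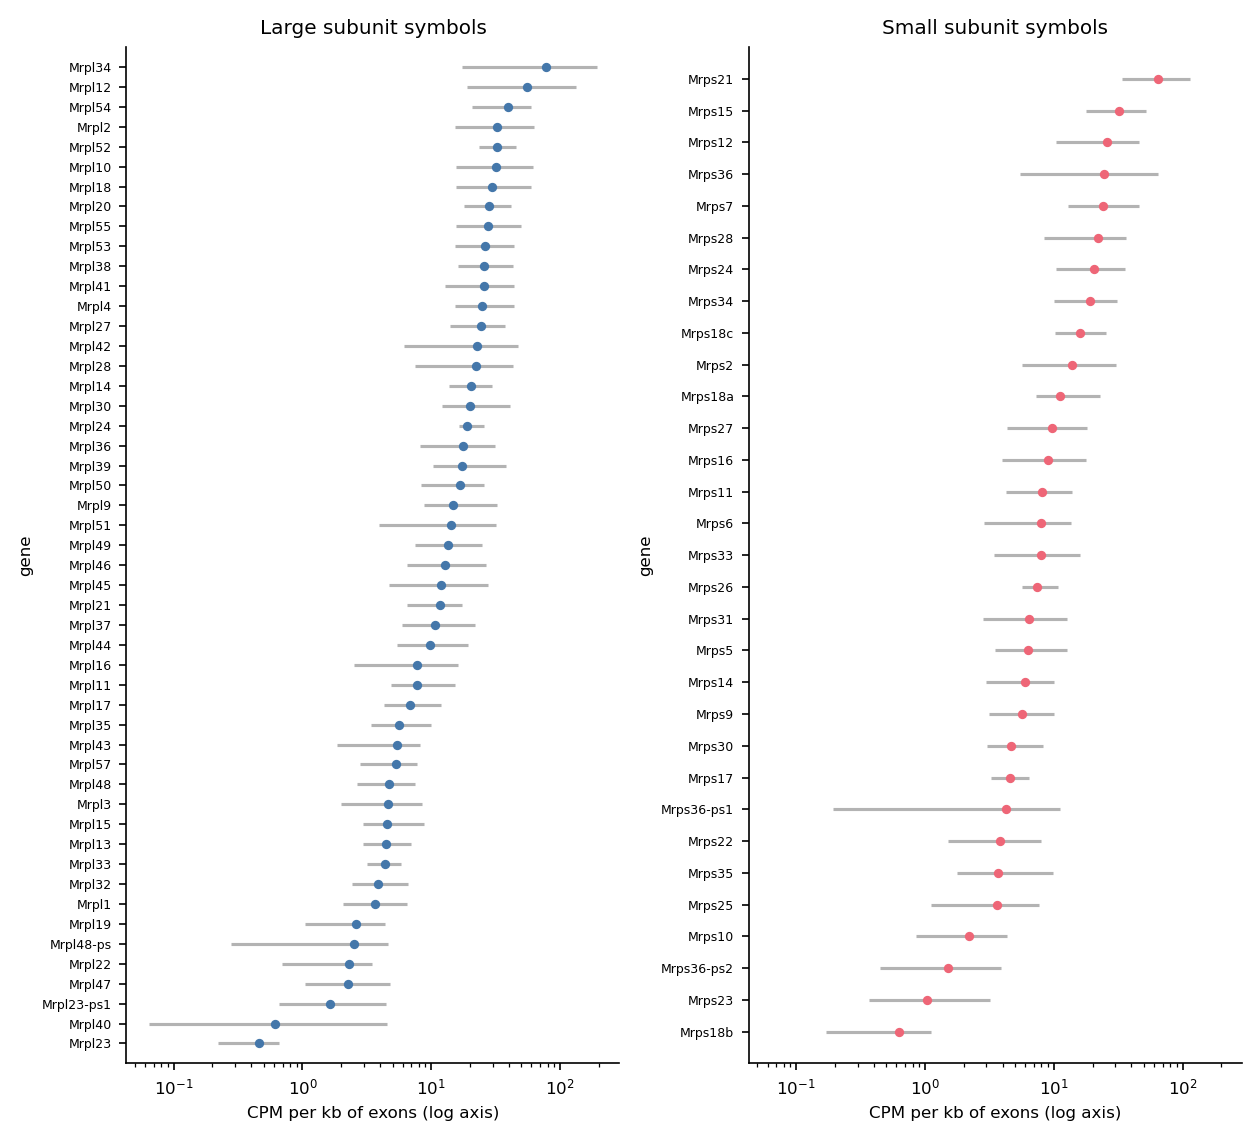
Level of each tested member per kilobase of exons (horizontal log axis, CPM per kb), large subunit symbols on the left and small on the right. Points are means over 14 mice and grey lines run from the lowest to the highest mouse, from 0.455 for Mrpl23 to 78.2 for Mrpl34 by mean.

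The 3 genes named Mrps18 encode proteins related to bacterial S18, and the modern names keep only Mrps18c as its counterpart and class the other two as specific to mitochondria. Mrps18c, in the small subunit, was at 15.9 ± 4.18 CPM per kb. Mrps18a, whose product sits in the large subunit despite its name, was at 11.1 ± 4.28, and Mrps18b, also in the small subunit, was at 0.633 ± 0.235 (each SD, n = 14). Of the 82 members, 18 share more than 10% of their exon bases with another gene of the annotation. Among them are Mrpl53 with 88%, Mrps34 with 77.8%, Mrps25 with 69.8%, Mrpl19 with 36%, Mrpl43 with 33.4% and Mrps18b with 30.5%. Mrpl24 shares 26.3%, Mrps27 24.2%, Mrps18c 23.2%, Mrpl10 14.1% and Mrpl12 13.1%. Mrpl47 shares 24.2%, and the overlapping gene there is Ndufb5. Reads there may have been dropped or given to the other gene, so the levels of these members are uncertain. Whether their comparisons between mice are touched as well was not tested. The 5 -ps symbols and their parent genes may likewise have exchanged reads.

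The mitochondrial ribosomal protein genes varied from mouse to mouse as a block, more within some groups than between groups. Their summed level was 1351, 4427 and 2348 CPM in the 3 WT normal mice, and 1916, 2737, 1914 and 3482 CPM in the 4 KO normal mice. After ischemia it was 1500.0, 1886 and 1776 CPM in WT mice and 1821, 2818, 2346 and 3073 CPM in KO mice. The highest and the lowest of all 14 mice, WT normal mouse 2 and WT normal mouse 1, were thus in 1 group, and they differed 3.28-fold. The WT ischemic mice lay close together near the lower end, and KO ischemic mouse 1 was below the highest of them. As mean and SD, the sums were 2709 ± 1569 CPM (n = 3), 2513 ± 754 (n = 4), 1721 ± 199 (n = 3) and 2515 ± 552 (n = 4) in the same order. In these whole artery samples, a smaller share of cells rich in these transcripts and less of them per cell cannot be told apart.

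The summed levels of the large and the small subunit stayed in nearly the same proportion in every mouse. Summed Mrpl CPM divided by summed Mrps CPM was 1.99, 2.01 and 2.02 in WT normal mice and 2.03, 2.09, 1.97 and 2.1 in KO normal mice. It was 2.0, 2.02 and 2.05 in WT ischemic mice and 2.06, 2.03, 2.01 and 2.04 in KO ischemic mice. The groups overlapped, and the ratio spanned 1.06-fold over mice whose sums spanned 3.28-fold. Group means were 2.01 ± 0.0128, 2.05 ± 0.0594, 2.03 ± 0.0264 and 2.04 ± 0.0214 (SD, n = 3, 4, 3 and 4). Mrps18a and Mrps30 belong to the large subunit by structure, and with both counted there the ratio was 2.22 to 2.4. Per kilobase it was 2.05 to 2.28. A ratio of sums is weighted towards the abundant members and does not show that single genes kept their proportion.

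**Figure D2:**
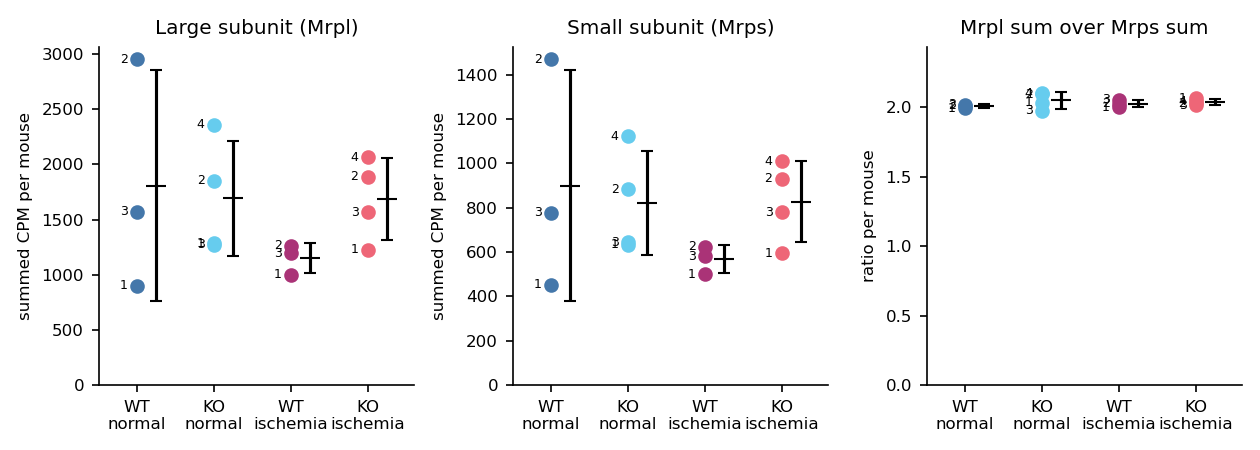
Summed CPM of the Mrpl and the Mrps symbols and their ratio, 1 point per mouse with its replicate number, by group. Bars to the right of the points are mean and SD. The sums spread from 900 to 2956 CPM (Mrpl) and from 451 to 1471 CPM (Mrps), while the ratio stays between 1.97 and 2.10.

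After group means were removed, the correlation of a member with the mean of the other members over the 14 mice had a median of 0.93, and it was above 0.9 for 52 of 81. Pairs of 1 large and 1 small subunit gene had a median r of 0.83, as did pairs of large subunit genes, and pairs of small subunit genes had 0.84. The points share library scaling and tissue composition, and these values are given without a test and without the same values for all genes. Mrpl2, which builds the peptidyl transferase centre, was among the closest to the block at 0.99. Mrpl23 at −0.12, Mrpl23-ps1 at 0.14, Mrpl24 at 0.31, Mrps23 at 0.32, Mrpl40 at 0.35 and Mrpl33 at 0.40 were the 6 under 0.5. Mrpl23 and Mrps23 were low, at 1.08 to 3.23 and 0.578 to 5.02 CPM. Mrpl24, a homolog of bacterial L24, was not low, at 37 to 58.2 CPM, and had the smallest span of any tested member, 1.57-fold. Wide spans belonged to Mrps36, at 6.9 to 82.3 CPM, and Mrpl34, at 10.5 to 118 CPM. Mrps36, despite its symbol, is known as a subunit of the oxoglutarate dehydrogenase complex of the citric acid cycle. The 5 other genes most like the members' mean were Txn2, Hibadh, Higd2a, Tpi1 and Hspe1, each with r = 0.99 over 14 mice after group means were removed.

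**Figure D3:**
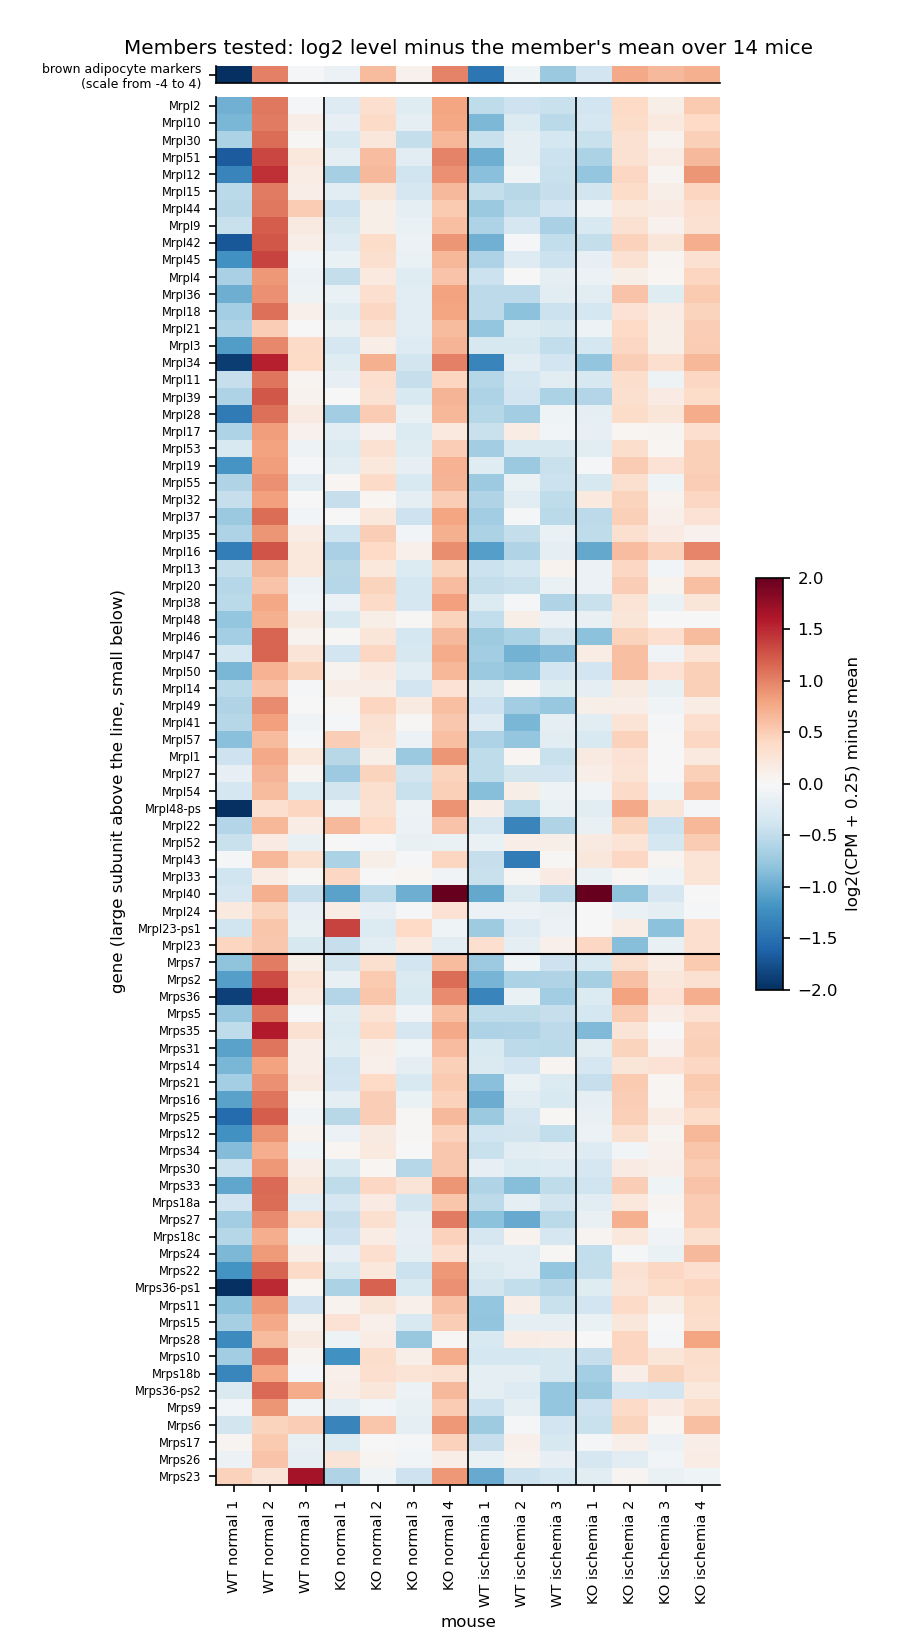
Level of the 81 tested members in each mouse as log2(CPM + 0.25) minus the member's own mean (colour, from -2 to 2), ordered within each subunit by correlation with the other members, with the brown adipocyte marker level on top (colour from -4 to 4). WT normal mouse 2 and KO normal mouse 4 are high for nearly all members, WT normal mouse 1 is low, and Mrpl40 stands apart in 2 KO mice.

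The members followed the brown adipocyte markers from mouse to mouse. WT normal mouse 1 had the lowest brown adipocyte marker level of all mice, a mean of 2.92 log2 CPM over the 6 markers, and the lowest members' sum. WT normal mouse 2 had the highest of both, with 9.0 log2 CPM for the markers. In WT ischemic mice the marker level was 4.08, 6.82 and 5.5 log2 CPM and in KO ischemic mice it was 6.21, 8.49, 8.28 and 8.41 log2 CPM. KO ischemic mouse 1, at 6.21, was below WT ischemic mouse 2 at 6.82, and its members' sum of 1821 CPM was also below the 1886 CPM of that mouse. With group means removed, 80 of 81 members correlated positively with these markers over the 14 mice (median r 0.86), and 80 of 81 correlated negatively with the smooth muscle markers (median r −0.78). The shares of all tested genes with these signs are not given here, so both counts have no background beside them and may not be particular to the members. The median slope was 0.26 log2 units of a member per log2 unit of marker. These are descriptions over libraries that share scaling and depth, with no test. Markers of adipocytes of any kind (Adipoq, Plin1, Cidec, Lep and Retn) had their extremes in the same mice. Their sum was lowest in WT normal mouse 1, at 174 CPM, and highest in WT normal mouse 2, at 3900 CPM. Whether the members went with brown adipocytes in particular or with adipocytes of any kind was not tested.

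**Figure D4:**
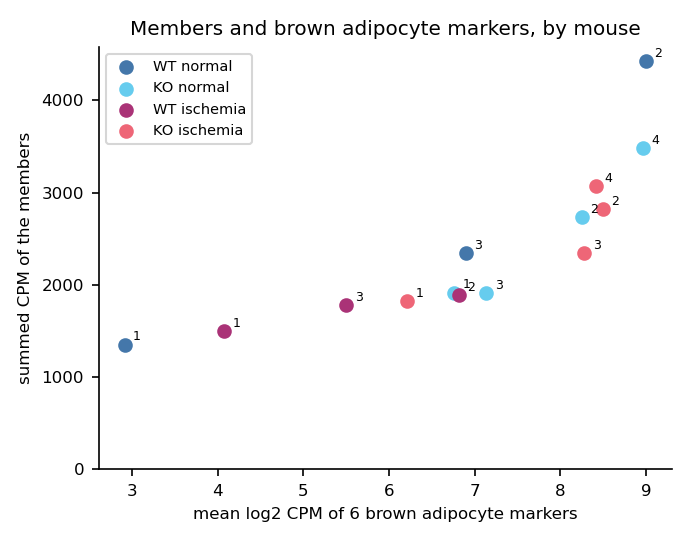
Summed CPM of the mitochondrial ribosomal protein genes (vertical) against the mean log2 CPM of 6 brown adipocyte markers (horizontal), 1 point per mouse with its replicate number, coloured by group. The sum runs from 1351 CPM at a marker level of 2.92 to 4427 CPM at 9.0, both in WT normal mice. It does not rise at every step between them. KO ischemic mouse 3 has 2346 CPM at 8.28, and WT normal mouse 3 has 2348 CPM at 6.9.

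Drp1 KO against WT under normal conditions was the comparison of the genotype alone. Most members lay slightly below 0. Their median log2 fold change was −0.10, against −0.02 for all genes tested, with 21 of 81 above 0. At an FDR under 0.05 with a fold change over 1.5 in edgeR's quasi-likelihood test, 0 of 81 were called, as were 0% of all genes. None of the 81 (0) had an unadjusted p under 0.05, where 5.25% of all genes had one. Mrps23, a small subunit protein specific to mitochondria, had the smallest p. It was at 2.04, 1.74 and 5.02 CPM in WT and at 0.846, 1.32, 0.994 and 2.79 CPM in KO mice. The groups overlapped, and the highest value was that of the mouse in lane 1. Its log2 fold change was −0.98 (standard error 0.52, unadjusted p = 0.0803, FDR = 0.974 in edgeR's quasi-likelihood test). Mrpl44, a protein related to RNase III enzymes, had −0.43 with an FDR of 1.0 in the same edgeR test. Without WT normal mouse 2 the members' median became 0.43, and without WT normal mouse 1 it became −0.43. With the brown adipocyte marker level as a covariate the median was −0.38, with 26 of 81 at an unadjusted p under 0.05, against 11% of all genes in that fit, and 0 called. The marker level was 6.27 ± 3.09 log2 CPM in WT normal and 7.78 ± 1.01 in KO normal mice (SD, n = 3 and 4). Here and in each comparison below, the covariate also removes any group difference that goes with the markers.

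Mrpl40 was at the other side of 0 from the members' median, with a log2 fold change of 1.93. It had 493 counts in all, and the value rested on KO normal mouse 4, at 7.92 CPM against 0.113 to 0.281 CPM in the other 3 KO normal mice, without which it was −1.62. WT normal mice were at 0.354, 0.994 and 0.302 CPM. After ischemia, KO mouse 1 had 3.18 CPM and the other 3 had 0.184 to 0.517 CPM. Mrpl40 lies beside Hira on chromosome 16, from which it is transcribed in the opposite direction. Mrpl23-ps1 also stood above 0, with 0.54, at 0.38 to 2.6 CPM. Neither difference passed the test (FDR = 1.0 for each in edgeR's quasi-likelihood test).

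For ischemia in WT mice, 80 of 81 members had a log2 fold change below 0, and no member passed the test. The median was −0.68, against −0.01 for all genes tested. Of the members, 0 passed the FDR and fold limits, where 0.0113% of all genes did. An unadjusted p under 0.05 was reached by 16 of 81 (19.8%), all lower after ischemia, against 9.57% of all genes in either direction. Large and small subunit symbols had the same median, −0.68 each, with 10 of 50 and 6 of 31 at that p. Members with a bacterial homolog had a median of −0.66 and those specific to mitochondria −0.78. All 3 ischemic mice were below all 3 normal WT mice for 6 of 81 members (7.41%), and for 4.42% of all genes. These 6 were Mrpl27, Mrpl47, Mrpl53, Mrps9, Mrps23 and Mrps35.

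Mrpl47, a homolog of bacterial L29 near the exit of the peptide tunnel, had the smallest p. It was at 7.11, 20.9 and 11 CPM in WT normal mice and at 5.59, 4.63 and 4.94 CPM in WT ischemic mice, so the groups did not overlap, and WT normal mouse 2 was by far the highest. Its log2 fold change was −1.36 (standard error 0.39, unadjusted p = 0.00402, FDR = 0.513 in edgeR's quasi-likelihood test). Mrps23 had 2.93 ± 1.81 CPM (SD, n = 3) under normal conditions and 0.871 ± 0.256 CPM (SD, n = 3) after ischemia, with a log2 fold change of −1.75 and an FDR of 0.513 in edgeR's test. Mrpl44 was at 10.2, 31.5 and 21.5 CPM before and 8.97, 10.5 and 11.5 CPM after ischemia. WT normal mouse 1 was inside the ischemic range there, and the log2 fold change was −1.03 (FDR = 0.513 by the same edgeR test). Mrpl52 alone was above 0, with 0.17. Its level was 32.5 ± 6.88 CPM (SD, n = 3) under normal conditions and 36.4 ± 3.73 CPM (SD, n = 3) after ischemia, within the spread between mice.

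The size of this shift depended on WT normal mouse 2, the one with the highest brown adipocyte markers. Without it the members' median was −0.14, with 2 of 81 at an unadjusted p under 0.05 against 4.56% of all genes in that fit. Without WT normal mouse 1, the one with the lowest markers, it was −1.0, with 60 of 81 against 18.6%. In both fits 0 of 81 were called. On the scale of mean log2 CPM, which gives a high mouse less weight than a ratio of means does, the median of all 3 against 3 mice was −0.49. With the brown adipocyte marker level as a covariate it was −0.26, and 14 of 81 members had an unadjusted p under 0.05, against 10.9% of all genes in that fit. Within lane 8 alone, without WT normal mouse 3, it was −0.76.

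In KO mice the members lay on both sides of 0 after ischemia. Their median log2 fold change was 0.01, against −0.05 for all genes, with 45 of 81 above 0. Of the members 0 were called, where 0.294% of all genes were, and 0 of 81 had an unadjusted p under 0.05, against 13.2% of all genes. Mrpl52 had the smallest p, with 33.4 ± 1.62 CPM (SD, n = 4) before and 40.3 ± 9.43 CPM (SD, n = 4) after ischemia. This was a log2 fold change of 0.27 (edgeR, FDR = 0.567). Mrps28, a homolog of bacterial S1, had 0.47 at 15.1, 18.1, 9.47 and 16.6 CPM before and 16.1, 21.9, 15.8 and 28.3 CPM after, with overlapping groups. Mrpl40 and Mrps36-ps2 lay farthest below 0, with −0.99 and −0.84, both among the members with the lowest levels. A p that misses the threshold does not show that the members were equal. The middle part of the 81 fold changes, from the first to the third quartile, ran from −0.11 to 0.10.

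After ischemia, 79 of 81 members had a higher fitted level in KO than in WT mice, and no member passed the test. The median log2 fold change was 0.60, against −0.03 for all genes. At the FDR and fold limits 0 of 81 were called, as were 0% of all genes. With an unadjusted p under 0.05 stood 12 of 81 (14.8%), all higher in KO mice, against 6.48% of all genes. Of these, 11 were among the 50 large subunit symbols and 1 among the 31 small subunit symbols, a difference that was not tested, and the medians were 0.64 and 0.58. All 4 KO mice were above all 3 WT mice for 25 of 81 members (30.9%), against 4.74% of all genes. This comparison shares its WT ischemic mice with that of ischemia in WT mice, so a low value there raises one and lowers the other.

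Mrpl47 again had the smallest p. The WT ischemic values were 5.59, 4.63 and 4.94 CPM and the KO ischemic values 10.3, 14.1, 8.77 and 11.1 CPM, without overlap. The log2 fold change was 1.13 (standard error 0.37, unadjusted p = 0.00946, FDR = 0.715 in edgeR's quasi-likelihood test). Mrps27, a small subunit protein with pentatricopeptide repeats, was at 10.3, 9.02 and 12.6 CPM in WT and 16.5, 30.2, 18.4 and 26.2 CPM in KO ischemic mice, with the lowest KO value that of mouse 1. Its log2 fold change was 1.10 (FDR = 0.715 in edgeR's test). Mrpl50, specific to mitochondria, was at 19.9, 18.8 and 25.4 CPM in WT and 25.5, 50.3, 40.8 and 46.5 CPM in KO mice. KO mouse 1 was just above the highest WT mouse and the other 3 stood well apart, with a log2 fold change of 0.93 and an FDR of 0.715 from edgeR. Mrpl23 and Mrps26 were the only members below 0, with −0.10 and −0.03. Mrps26 was at 30.1 ± 2.81 CPM (SD, n = 3) in WT and 29.5 ± 4.42 CPM (SD, n = 4) in KO ischemic mice.

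KO ischemic mice also had more of the brown adipocyte markers, at 7.85 ± 1.09 log2 CPM against 5.46 ± 1.37 in WT ischemic mice (SD, n = 4 and 3). Their summed smooth muscle markers were at 18330.3 to 29769 CPM, and those of WT ischemic mice at 19603 to 35650.2 CPM. KO ischemic mouse 4 also had skeletal muscle markers at 163 CPM in sum. Because the brown adipocyte markers differed on average between these groups, a covariate for them also removes any genotype difference that goes with them. With the brown adipocyte marker level as a covariate the members' median was −0.087, with 27 of 81 above 0 and 5 of 81 at an unadjusted p under 0.05 against 6.27% of all genes in that fit, and Mrpl47 had a log2 fold change of 0.58 (FDR = 0.812 in edgeR's test). The median was between 0.50 and 0.73 with any 1 mouse left out, but the members at an unadjusted p under 0.05 numbered 4 without WT ischemic mouse 1, WT ischemic mouse 2 or KO ischemic mouse 4, against 3.48%, 6.49% and 3.58% of all genes in those fits. They numbered 34 without WT normal mouse 2 and 33 without WT normal mouse 1, against 10.003% and 9.73%. Fitting the 7 ischemic mice by themselves gave a median of 0.63 over 80 members, with 44 at an unadjusted p under 0.05, against 14.8% of all genes in that fit, and 0 called.

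**Figure D5:**
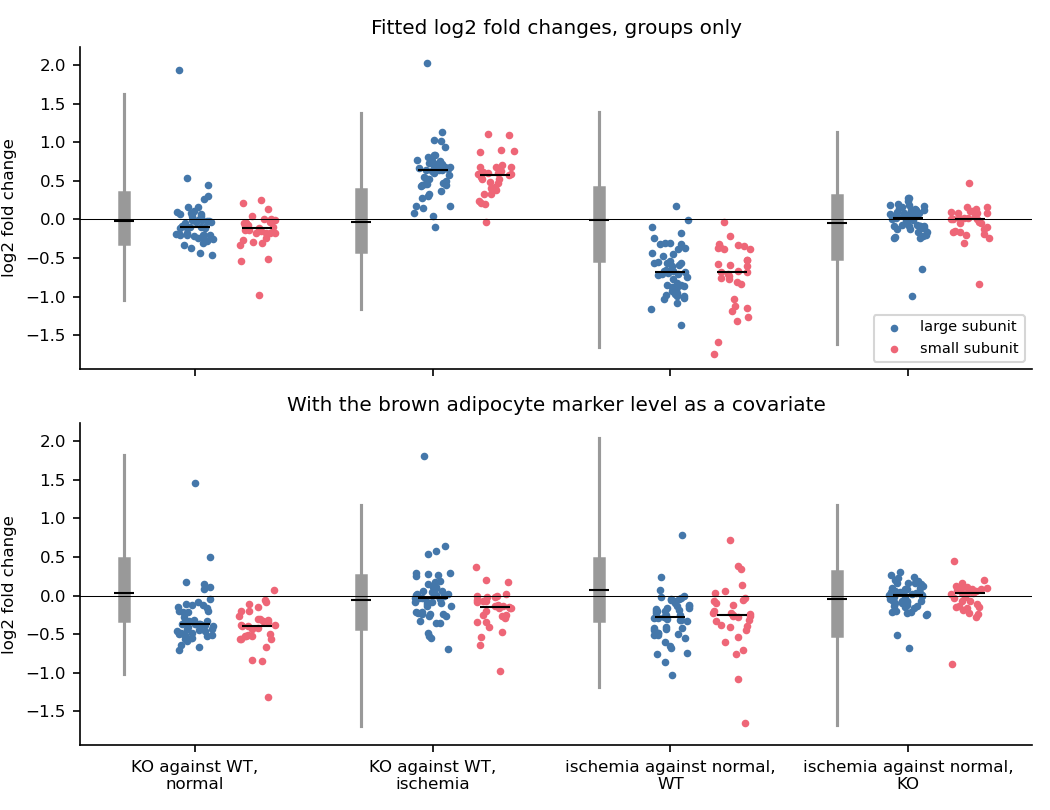
Log2 fold changes of the tested members in 4 comparisons (vertical axis), large subunit in blue and small in red with their medians as black lines, beside all tested genes (grey, thick from the 25th to the 75th and thin from the 5th to the 95th percentile). The upper panel fits the groups alone and the lower adds the brown adipocyte marker level. The shift of 0.60 for KO against WT after ischemia becomes −0.087 in the lower panel. The marker level itself differed on average between these groups.

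The difference between the 2 effects of ischemia was tested by the interaction of genotype and condition. The members' median was 0.71, against −0.02 for all genes, and 79 of 81 were above 0. Of the members 0 were called, as were 0% of all genes, and 6 of 81 (7.41%) had an unadjusted p under 0.05, against 4.32% of all genes. Mrpl47, Mrpl44 and Mrpl43 had the smallest p, with 1.43, 1.14 and 1.10 and an FDR of 0.946 each in edgeR's test. Mrpl43 was at 10.02 ± 2.42 CPM (SD, n = 3), 7.95 ± 2.37 CPM (SD, n = 4), 5.47 ± 2.57 CPM (SD, n = 3) and 9.34 ± 0.982 CPM (SD, n = 4) in WT normal, KO normal, WT ischemic and KO ischemic mice. The median fell to 0.18 without WT normal mouse 2 and was 0.28 with the marker covariate.

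Averaged over both conditions, KO against WT gave a median of 0.23, with 75 of 81 members above 0. The brown adipocyte marker covariate turned it to −0.23, with 15 of 81 at an unadjusted p under 0.05 against 9.94% of all genes in that fit, and without WT normal mouse 2 it was 0.52. No member was called (0 of 81, and 0% of all genes), and 1 of 81 had an unadjusted p under 0.05, against 7.77% of all genes. That gene was Mrpl57, a large subunit protein specific to mitochondria, with a log2 fold change of 0.50 (FDR = 0.641 in edgeR's test). Mrpl21 and Mrpl22, homologs of bacterial L21 and L22, followed with 0.43 and 0.65. Averaged over both genotypes, ischemia gave a median of −0.33, with 78 of 81 below 0. It was −0.051 without WT normal mouse 2 and −0.12 with the covariate. Here 0 of 81 were called, against 0.927% of all genes, and 6 of 81 had an unadjusted p under 0.05, against 18.1% of all genes. Mrpl49, specific to mitochondria, was at 15.6, 46.2 and 23.7 CPM in WT and 24.3, 32.3, 27 and 36.3 CPM in KO normal mice. After ischemia it was at 17.8, 14.6 and 14 CPM in WT and 26, 26.3, 22.7 and 26.5 CPM in KO mice, with overlap of normal and ischemic mice in each genotype. Mrpl49 had a log2 fold change of −0.56, Mrps23 −0.96 and Mrpl47 −0.65, with FDR values of 0.184, 0.208 and 0.217 in edgeR's test. For any difference among the 4 groups, 0 of 81 were called, against 0.13% of all genes, and 3 of 81 had an unadjusted p under 0.05, against 12.5% of all genes. DESeq2 also called 0 members in each of the 8 comparisons, with a smallest adjusted p of 0.0853 for Mrpl47 in WT mice after ischemia. The share of all genes that DESeq2 called is not given here, so this 0 has no background beside it. An unadjusted p under 0.05 in DESeq2 went to 14 of 80 members in KO against WT mice after ischemia, against 8.91% of all genes. For ischemia in WT mice it went to 24 of 80, against 13.1%.

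The study names 7 members, Mrpl19, Mrpl21, Mrpl27, Mrpl32, Mrpl44, Mrpl47 and Mrpl49, in its list of enriched functions. It lists them under a trend of genes that fell in ischemic WT mice and recovered in ischemic KO mice. These members were chosen for that pattern on the same mice, so their direction and their lack of overlap below are not independent evidence. In KO against WT mice after ischemia their log2 fold changes were 0.81, 0.69, 0.66, 0.74, 0.71, 1.13 and 0.71, with an FDR of 0.715 each in edgeR's test. Mrpl32, which needs processing by a mitochondrial protease before it joins the ribosome, was at 12, 15.7 and 12.9 CPM in WT and 21.1, 25.1, 19.4 and 24.5 CPM in KO ischemic mice, without overlap. All 7 were among the 25 members whose KO ischemic mice lay above all WT ischemic mice. In WT mice after ischemia, their values against normal ran from −1.36 for Mrpl47 to −0.47 for Mrpl21. Mrpl19 had −0.57, and without WT normal mouse 2 it had 0.0078.

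Members with other roles were placed in the same range. The stalk genes Mrpl10, Mrpl11 and Mrpl12 had log2 fold changes of −0.85, −0.74 and −0.93 after ischemia in WT mice, and of 0.74, 0.49 and 0.68 in KO against WT mice after ischemia. Mrpl12 was at 29.2, 204 and 81.4 CPM in the WT normal mice, the widest range of the 3. Mrpl45, which anchors the ribosome to the inner membrane, had −0.83 and 0.58 in the same order, and Mrps12 had −0.58 and 0.68. Mrps18a, Mrps18b and Mrps18c had 0.52, 0.42 and 0.33 in KO against WT mice after ischemia, and Mrpl55 and Mrps30 had 0.56 and 0.38. None of these passed the test.

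The other parts of mitochondrial translation had medians of the same sign in these comparisons. No gene of these lists was called in any of the 8 comparisons. In KO against WT mice after ischemia the median log2 fold change was 0.46 for the 6 ribosomal proteins under other symbols, such as Dap3, and 0.59 for the 14 translation factors, beside 0.60 for the members. It was 0.37 for the 25 genes of ribosome assembly and rRNA modification and 0.44 for the 20 aminoacyl-tRNA synthetases and amidotransferase subunits. The corresponding medians for ischemia in WT mice were −0.39, −0.83, −0.56 and −0.59, beside −0.68. At an unadjusted p under 0.05 these lists had 0 of 6, 0 of 14, 3 of 25 and 1 of 20 genes in KO against WT mice after ischemia, against 6.48% of all genes. For ischemia in WT mice they had 0 of 6, 5 of 14, 7 of 25 and 6 of 20, against 9.57%. Gfm1, the elongation factor of the mitochondrial ribosome, was at 36, 41.7 and 42 CPM in WT and 48, 96, 82.4 and 85.6 CPM in KO ischemic mice, without overlap, and had a log2 fold change of 0.97 (FDR = 0.715 in edgeR's test). The study lists Gfm1 under the same trend, chosen on the same mice. The 13 regulators of mitochondrial biogenesis had medians of 0.16 and −0.29. Among them Nrf1, Gabpa and Yy1, whose motif letters were searched above, had −0.28, 0.16 and −0.09 in KO against WT mice after ischemia. Ppargc1a, a coactivator of mitochondrial biogenesis, had 3.23 for ischemia in KO mice, from 7.25, 23.8, 15.2 and 39.1 CPM to 73.9, 213, 390.2 and 121 CPM without overlap, with an FDR of 0.197 in edgeR's test. It was picked from the 13 regulators after its values were seen, and its WT values are not given here. The value does not show a change particular to KO mice, and 0 of all genes were called for the interaction.

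The 84 tested cytosolic ribosomal protein genes had medians above 0 for ischemia, 0.25 in WT mice and 0.21 in KO mice, where the members had −0.68 and 0.01. For KO against WT their medians were −0.07 under normal conditions and −0.08 after ischemia. At an unadjusted p under 0.05, 10 of the 84 stood higher after ischemia in WT mice, beside 9.57% of all genes, and 7 of the 84 did so in KO mice, beside 13.2%, and 0 were called. Members' CPM as a percentage of cytosolic ribosomal protein CPM was 10.4, 32.7 and 19.3 in WT normal mice and 13.6, 22.9, 15 and 32 in KO normal mice. After ischemia it was 9.6, 12.9 and 11.6 in WT and 12, 19.6, 19.1 and 20.3 in KO mice. The 13 protein-coding genes of the mitochondrial genome, which the mitochondrial ribosome translates, took 9.4 to 25.1% of all counts in WT normal mice and 6.46 to 19.2% in WT ischemic mice. The share was 15.8 to 19.9% in KO normal and 11.1 to 13.8% in KO ischemic mice, without overlap. Unlike the members, all 13 were below 0 for ischemia in KO as well as in WT mice, with medians of −0.76 and −0.63. Of the 13, 5 had an unadjusted p under 0.05 in KO and 3 in WT mice, against 13.2% and 9.57% of all genes. The difference between the members and these genes was not tested.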

How the data were processed

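RNA of the superior mesenteric artery of 14 mice in 4 groups was measured by RNA-seq, with 25612646 to 40255851 counts per mouse. The authors deposited whole-number read counts per gene symbol, without normalization. The submitters' processing notes name HISAT2 2.0.4 and mm10. The counting program, its annotation and its use of strand are not given in the sources used here. The study's methods describe arrays, but the values are counts.

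Counts were tested with edgeR 4.0.16 in R 4.3.3 (quasi-likelihood test, TMM scaling, filterByExpr by the 4 groups), in 1 fit over all 14 mice, with Benjamini-Hochberg adjustment over all 17693 genes tested. The limits for a call were FDR below 0.05 together with a change of more than 1.5-fold. A log2 fold change is the fitted log2 ratio of group levels, and log2 CPM used a prior count of 2. The common biological coefficient of variation was 0.522. DESeq2 1.42.0 was an alternative. The scripts were checked on simulated data. Gene lengths, positions and overlaps came from GENCODE M21 and promoters from RefSeq.

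Groups followed the sample labels. Labels do not say whether mice shared a litter or day. No 2 libraries of a group agreed within sampling noise (18 pairs, smallest chi-square per gene 61.7). Same-numbered mice did not deviate together (r −0.15 to 0.32 over 19 pairs), which does not exclude that they shared a litter or day.

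The members and gene lists were chosen with earlier results of these data known. Named were, in each comparison with a direction, the 3 members with the smallest p and, between 2 groups, the 2 farthest on the other side of 0 from the members' median, then the 7 members the study lists, the 3 highest and 3 lowest per kilobase in each subunit, the untested member, the role examples Mrpl10, Mrpl11, Mrpl12, Mrps12, Mrpl45, Mrps18a, Mrps18b, Mrps18c, Mrpl55 and Mrps30, and Dnm1l. Mrpl2, Mrpl24, Mrpl33, Mrpl36, Mrpl46, Mrpl53, Mrps9, Mrps11, Mrps25, Mrps34, Mrps35, Mrps36, Gfm1, Ppargc1a, the motif factors and the genes of the mitochondrial genome were chosen after their values were seen. Intervals for counts cover counting error only.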

Additional observations from a re-analysis of the deposited data

Results flagged for a closer look

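In groups of 4 mice, a mouse was singled out where its gap to the nearest other mouse, divided by the range of the group, passed Dixon's 95% critical value for 4 values. This was applied to the named members and to the summed Mrpl and Mrps levels in both KO groups, 72 groups of 4 values in all, of which 3 passed. Chance alone marks about 1 in 20 such groups. Mrpl40 was at 7.92 CPM in KO normal mouse 4, with the others at 0.113 to 0.281 CPM, and at 3.18 CPM in KO ischemic mouse 1, with the others at 0.184 to 0.517 CPM. Mrpl49 was at 22.7 CPM in KO ischemic mouse 3, below the 25.97 to 26.5 CPM of the other 3. In the annotation Mrpl40 shares 0% of its exon bases with another gene, and the source of these reads was not tested.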

How the results depend on the processing

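In all 8 comparisons 0 of the tested members were called under each alternative run: DESeq2, its size factors, upper-quartile scaling, no filter on low counts, at least 10 counts in every mouse (77 members), no fold limit, the replicate block, the brown adipocyte marker covariate, and each of the 14 mice left out (0 to 0 in each comparison). Fits of only the groups compared, run for the 4 comparisons between 2 groups, also gave 0. The share of all genes called in these runs is not given here, so a 0 may match the background. In the replicate block the members' median log2 fold changes were −0.16 and 0.42 for KO against WT under normal conditions and after ischemia, −0.54 and 0.04 for ischemia in WT and KO mice, 0.59 for the interaction, 0.13 for KO against WT and −0.24 for ischemia over both. It changed no call, and the numbers are not known to pair the mice. A median was taken as moved when it shifted by more than 0.50, the SD of the members' median between mice of a group. That limit exceeds several of the medians, so a median can change sign and not count as moved. KO against WT over both conditions did so with the marker covariate, from 0.23 to −0.23. A median that did not move by this rule is therefore not shown to be stable. The marker covariate moved KO against WT after ischemia from 0.60 to −0.087. With 1 mouse left out the medians ran from −0.43 to 0.43 for KO against WT under normal conditions, 0.50 to 0.73 after ischemia, −1.0 to −0.14 for ischemia in WT mice, −0.10 to 0.23 in KO mice, 0.18 to 1.07 for the interaction, 0.11 to 0.52 for KO against WT over both conditions and −0.48 to −0.051 for ischemia over both genotypes. The marker covariate gave −0.23 and −0.12 for these averages. With 1 mouse left out, members at an unadjusted p under 0.05 numbered 4 to 34 for KO against WT after ischemia and 2 to 60 for ischemia in WT mice. Leaving out WT normal mouse 2 moved the values for KO against WT under normal conditions, ischemia in WT mice and the interaction, and no other mouse moved any. Differences of mean log2 CPM, chosen after seeing the data, moved none. The median ratio of Mrpl to Mrps sums went from 2.03 to 2.35 with Mrps18a and Mrps30 in the large subunit and to 2.15 per kilobase. Of 693 values of named members under the alternatives, 690 kept direction and side of the threshold and 3 reversed: Mrpl40 in KO against WT normal mice, from 1.93 to −0.91 in the replicate block and −1.62 without KO normal mouse 4 (−1.62 to 2.66 over mice left out), and Mrpl19 for ischemia in WT mice, from −0.57 to 0.0078 without WT normal mouse 2 (−0.96 to 0.0078). With 3 mice in a WT group and this spread, shifts of the size seen here in single members could not be told from differences between mice.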
